A study of Mus musculus with 6 samples.

Results

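Transcript abundance in the normal newborn mouse lens was described from the 3 arrays labelled wild type, of 6 arrays in all. These are lenses of newborn mice of the ICR strain, with no transgene, deletion or treatment. The methods call them biological triplicates without saying how many lenses each held. The HSF4 null arrays, 3 as well, entered no comparison. For each sample, 50 ng of total RNA was amplified and hybridized, and transcripts are read through probe sets, groups of short oligonucleotides directed at one transcript. After the 64 array controls, 22626 of 22690 probe sets remained and were ranked by their mean log2 intensity over the 3 arrays. Each of 12393 genes stands with its brightest probe set that carries a single symbol.

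The lens consists of an anterior monolayer of epithelial cells and a mass of elongated fiber cells. Epithelial cells divide near the equator, leave the cell cycle and differentiate into fibers, which fill with crystallins, build a beaded intermediate filament and extensive cell contacts, and later degrade their nuclei and organelles. A capsule of basement membrane encloses both cell types, and in the newborn a transient network of vessels still surrounds it. Signals come from bulk tissue, so fewer cells of a type and less RNA per cell cannot be told apart.

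The arrays were close in scale. Median log2 intensities were 5.33, 5.34 and 5.23 in replicates 1, 2 and 3, and log2 values of probe sets correlated at 0.991 to 0.993 between pairs of arrays, across probe sets that are not independent replicates. No pair held identical values. The deposited table holds no detection calls, so 25 measured genes typical of other organs (liver, pancreas, testis and others) served as a low reference. The 90th percentile of this list was at log2 intensities of 5.58, 5.49 and 5.63 on the 3 arrays, and 6286 of 12393 genes (50.7%) lay above it on each array. The order of signals between genes also depends on how well each probe set binds its target and is not corrected for transcript length. It is given as a description and not as numbers of transcripts. A gene with several probe sets had a median gap of 1.96 on the log2 scale between its brightest and its dimmest.

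Crystallins, the structural proteins that give the lens its refractive power, stood at the top of the order. All 14 measured crystallin genes were among the 50 brightest genes, and the dimmest of them, Crybb2, held rank 27 of 12393. Cryba1, which encodes the βA3/A1-crystallins, had the highest signal on each array, with log2 intensities of 14.30, 14.30 and 14.32. It did not overlap with the next gene, Crybb1, at 14.13, 14.14 and 14.16. Below Cryba1 the order was mostly unresolved, and ranges of neighbours failed to overlap in 5 of the 49 adjacent pairs among the 50 brightest genes. The rank of a gene in this group moved by a median of 3 places between arrays and by 19 at most.

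**Figure D1:**
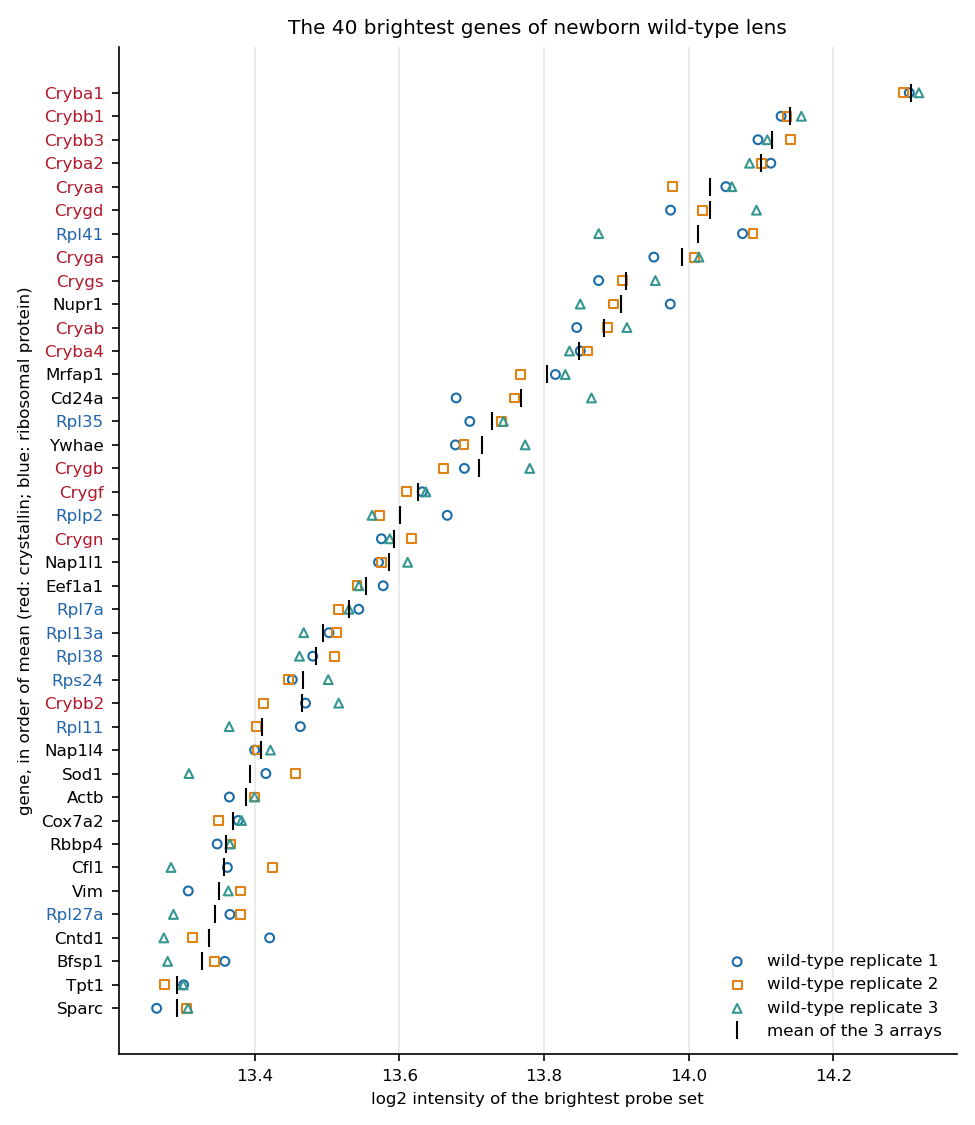
Log2 intensity (horizontal axis) of the 40 brightest genes in each of the 3 wild-type arrays, with the mean as a black bar. Genes run from Cryba1 at the top (mean 14.31) to Sparc (mean 13.29), and most neighbours overlap.

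The α- and β-crystallins, 8 genes, had a median log2 intensity of 14.06. Crybb3, Cryba2 and Cryba4, further β-crystallins, had mean log2 intensities of 14.12 ± 0.02, 14.10 ± 0.01 and 13.85 ± 0.01 (SD, n = 3). Cryaa encodes αA-crystallin, a small heat shock protein largely restricted to lens, and read 14.05, 13.98 and 14.06. Cryab encodes αB-crystallin, a small heat shock protein found in many tissues, and read 13.85, 13.89 and 13.91. The other two Cryab probe sets read 13.41 and 3.86 on average, which shows how far probe sets of a single gene can lie apart.

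The γ-crystallins, monomeric crystallins of the fiber cells, had a median log2 intensity of 13.81 over 6 measured genes. Crygd read 13.97, 14.02 and 14.09, Cryga read 13.95, 14.01 and 14.01, and Crygs, a γ-crystallin also made in the adult lens, read 13.88, 13.91 and 13.95. Replicate 3 held the highest value in each of these, and in 10 of the 14 crystallins, against 37.8% of all genes. The differences were small: SDs of the 14 crystallins ran from 0.01 for Cryba1 to 0.06 for Crygb on the log2 scale. Crygc and Cryge had no probe set with a single symbol. A probe set that carries the symbols of both Crygc and Crygb was the second brightest of all, at 14.22, 14.25 and 14.25, and was assigned to neither gene.

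Promoters of the crystallins are shown because these genes led the order together, and because a TATA box is often found in strongly expressed, cell-type-restricted genes. RefSeq promoter windows were in the table for 15 of the 16 listed crystallins. The 90 bases before the annotated start are printed 5′ to 3′ for the 8 brightest crystallins and, for comparison, for the ribosomal protein gene Rpl41, rank 7. Capitals mark TATAAA or TATATA starting 20 to 45 bases before the start and, anywhere in the stretch, CCAACNCAG.
Cryba1 (GRCm38.p6 chr11:77725294-77725383, minus strand): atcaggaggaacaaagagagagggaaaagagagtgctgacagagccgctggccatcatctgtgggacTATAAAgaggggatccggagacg
Crybb1 (GRCm38.p6 chr5:112255730-112255819, plus strand): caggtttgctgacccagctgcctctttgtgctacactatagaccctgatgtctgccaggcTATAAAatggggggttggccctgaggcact
Crybb3 (GRCm38.p6 chr5:113081585-113081674, minus strand): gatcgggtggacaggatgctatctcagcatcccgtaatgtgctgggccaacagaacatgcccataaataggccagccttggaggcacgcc
Cryba2 (GRCm38.p6 chr1:74893144-74893233, minus strand): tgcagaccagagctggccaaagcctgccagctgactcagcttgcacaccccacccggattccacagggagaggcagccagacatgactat
Cryaa (GRCm38.p6 chr17:31677841-31677930, plus strand): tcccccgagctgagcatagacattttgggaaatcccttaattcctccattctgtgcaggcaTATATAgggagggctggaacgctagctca
Crygd (GRCm38.p6 chr1:65063441-65063530, minus strand): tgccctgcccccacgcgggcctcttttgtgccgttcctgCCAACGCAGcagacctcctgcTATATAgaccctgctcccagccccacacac
Cryga (GRCm38.p6 chr1:65103364-65103453, minus strand): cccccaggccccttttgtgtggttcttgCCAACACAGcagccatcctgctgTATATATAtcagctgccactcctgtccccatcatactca
Crygs (GRCm38.p6 chr16:22811411-22811500, minus strand): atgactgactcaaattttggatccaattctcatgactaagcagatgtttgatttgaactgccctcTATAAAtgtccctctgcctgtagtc
Rpl41 (GRCm38.p6 chr10:128549169-128549258, minus strand): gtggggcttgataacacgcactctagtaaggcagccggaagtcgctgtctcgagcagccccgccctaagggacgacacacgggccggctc

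Of the 15 crystallin promoters, 10 (66.7%) held TATAAA or TATATA in that window on the coding strand. The same letters stood in 973 of 32851 promoters of the table (2.96%) and in 431 of 12566 promoters of measured genes (3.43%). On the opposite strand the share was 7 of the 15 crystallin promoters (46.7%) and 1.76% over the table. TATATA is its own reverse complement, so matches of it count on both strands. Of the crystallin promoters, 7 held TATATA, 5 of them in Cryga to Crygf, and 3 held TATAAA. In other groups either stood on the coding strand in 4 of 37 promoters of the fiber genes without crystallins and 3 of 43 of the ribosomal protein genes. For the lens epithelium list it was 1 of 27, and no test was made between groups. Some genes have several annotated starts. In the Rpl41 stretch and in the windows of Cryba2, Cryba4, Crybb2, Crybb3 and Cryge these letters were not present. The letters CCAACNCAG stood within 250 bases before the start in 4 of the 6 promoters of Cryga to Crygf and in 168 of all 32851 (0.511%), with 198 (0.603%) on the opposite strand. They were chosen after the sequences were seen, and Cryga to Crygf are related copies on chromosome 1, so their promoters are not independent.

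Summed over all 12393 genes, signal was less concentrated than this order might imply. The 10 brightest genes held 2.85% of summed linear intensity, the 50 brightest 10.4% and the 500 brightest 44.7%. The 14 crystallins held 3.64%, with 3.63%, 3.59% and 3.70% on the 3 arrays, and the 42 measured cytosolic ribosomal protein genes held 5.05%. These are shares of array signal and not of RNA molecules. In addition, 43 of the 100 brightest probe sets carry several symbols or none and are left out of these sums.

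Among genes with a single-symbol probe set, ribosomal proteins were the second large group at the top, with 13 of the 50 brightest. Of 78 listed ribosomal protein genes, 42 were measured. Bright probe sets that carry a ribosomal protein gene beside other symbols were left out, such as those of Rps6 (mean 13.85) and Rps25 (mean 13.79). The order of these groups thus depends on that rule. Rpl41 read 14.07, 14.09 and 13.88, lowest in replicate 3, and Rpl35 read 13.70, 13.74 and 13.74. The remaining bright genes were of mixed function. Nupr1, a small stress-responsive nuclear protein, held rank 10 with 13.97, 13.90 and 13.85. Cd24a, a glycosylated surface protein of immature cells, read 13.68, 13.76 and 13.87, and Sod1, the cytosolic superoxide dismutase, read 13.42, 13.46 and 13.31. Nap1l1 and Nap1l4, histone chaperones, had means of 13.59 and 13.41. Rbbp4, a histone-binding subunit of several chromatin complexes, had a mean of 13.36 ± 0.01 (SD, n = 3). Mrfap1 had a mean log2 intensity of 13.80. Cntd1 had one of 13.34 from a probe set of a kind that can match several transcripts, and its other two probe sets read 6.47 and 3.51.

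Fiber genes other than crystallins spanned most of the scale. Over the 4 fiber lists together, 41 of 46 measured genes lay above the level of the genes of other organs on each array, against 50.7% of all genes. The median log2 intensity of the 46 was 11.92 against 5.93 for all genes. Without the 14 crystallins the median was 10.76 over 32 genes, with array medians of 10.63, 10.79 and 10.86. The cytoskeletal and cytosolic fiber genes had a median of 11.37 and the membrane and junction genes one of 9.27.

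Among the cytoskeletal genes, Vim (vimentin, the intermediate filament protein of epithelium and young fibers) read 13.31, 13.38 and 13.36. Bfsp1 (filensin, of the fiber-specific beaded filament) read 13.36, 13.34 and 13.28, and its ranges overlapped with those of Vim. Sptbn1, a spectrin of the membrane skeleton, read 13.04, 12.89 and 13.13. Tdrd7, a component of RNA granules needed for lens clarity, read 11.87, 11.98 and 12.12, and Caprin2, another RNA-binding protein of fibers, read 11.41, 11.37 and 11.45. Capn3, a calcium-activated protease, had a mean of 11.73 ± 0.10 (SD, n = 3). At the low end stood Hspb1 (9.40, 9.85 and 9.17), Epb41l1 (9.26, 9.09 and 9.34) and Cryl1, an enzyme related in name to crystallins, at 4.12. Bfsp2, Lgsn, Grifin and Birc7 had no probe set with a single symbol.

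Among membrane genes, Mip, the aquaporin of fiber membranes, was brightest with log2 intensities of 13.14, 13.23 and 13.22. A second Mip probe set read 12.03, 12.06 and 12.16. The adhesion molecules Cadm1 (12.28 ± 0.03, SD, n = 3), Ncam1 (12.01 ± 0.17, SD, n = 3) and Cdh2, the N-cadherin of fiber contacts (11.86, 11.90 and 12.03), followed. Gja3, the connexin 46 of fiber gap junctions, had a mean of 8.88. The dimmest were Efna5, an ephrin (3.69, 4.02 and 3.63), and the cystine transporter subunit Slc7a11 (4.53 ± 0.03, SD, n = 3). Both were below the level of the genes of other organs. Lim2, another fiber membrane gene, had no probe set with a single symbol.

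The lens epithelium list was high in these whole lenses as well. Of 29 measured genes, 26 lay above the level of the genes of other organs on each array, against 50.7% of all genes. The median log2 intensity was 10.13. The fiber genes without crystallins had a median of 10.76, and no test was made between different probe sets. The retina or the pigment and ciliary epithelium also express 14 of the 29 genes, and the 15 others had a median of 10.26.

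Sparc, a matricellular protein of capsule and epithelium, read 13.26, 13.31 and 13.31, and Slc2a1, the glucose transporter GLUT1, read 13.27, 13.30 and 13.28. Gja1, the connexin 43 of epithelial gap junctions, read 12.96, 12.87 and 12.78. Pdpn (podoplanin) read 11.09, 11.16 and 11.03, and Itga6, a laminin receptor subunit, 11.75, 11.85 and 11.92. Cdh1, the E-cadherin that fibers lose, read 10.04, 10.02 and 10.33, and Pax6, the eye's central transcription factor, 10.93, 10.81 and 10.31. Clu, the extracellular chaperone clusterin, read 11.84, 12.20 and 12.73, and all of its 4 probe sets had their lowest value in replicate 1 and their highest in replicate 3. The defining marker Foxe3, a forkhead factor of lens epithelium, was an exception: its only probe set read 4.17, 4.15 and 4.23, below the level of the genes of other organs. Of the 3 defining markers, Pax6, which the retina also expresses, and Cdh1 were thus bright and Foxe3 was not.

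**Figure D2:**
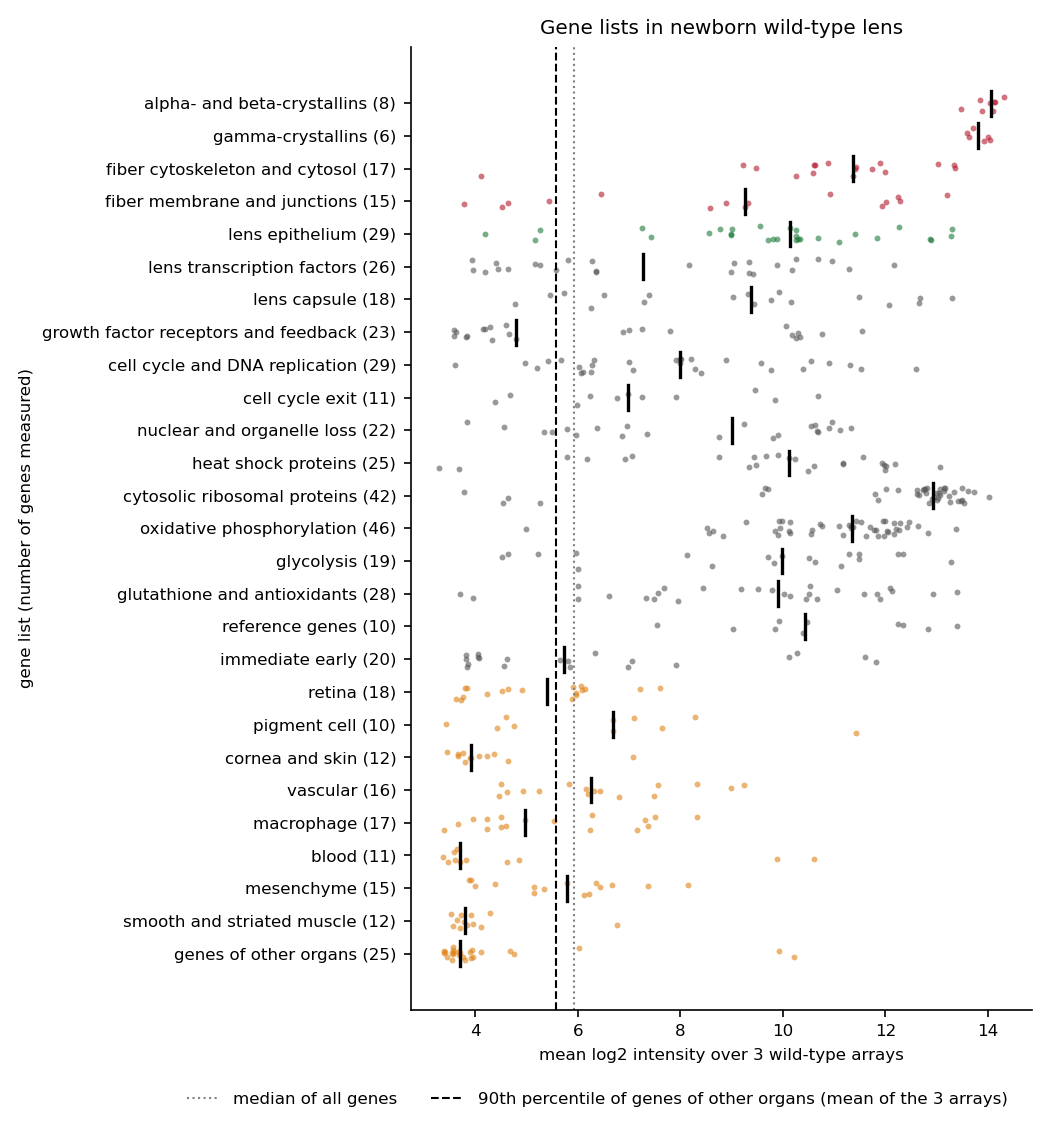
Mean log2 intensity over the 3 wild-type arrays (horizontal axis) of each measured gene, by list, with the list median as a black bar. Fiber lists are red, lens epithelium green, other gene groups grey, and markers of other cell types and organs orange. Crystallins lie above 13, the epithelium list has a median of 10.13, and blood, muscle and cornea lists have medians under 4.

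Lens transcription factors covered a wide range, with a median log2 intensity of 7.27 over 26 genes. Of these, 17 lay above the level of the genes of other organs, against 50.7% of all genes. Hif1a, the hypoxia-inducible factor, was brightest with 12.08, 12.16 and 12.24. Hey1, a Notch target, had a mean of 10.96, Sox2 of 9.42 ± 0.06 (SD, n = 3) and Prox1, which drives fiber elongation, read 9.32, 9.22 and 9.50. Hsf4, the heat shock factor of lens fibers, read 9.09, 9.39 and 9.56. Factors with a known part in the lens were also among those below that level, such as Sox1 (3.98, 3.94 and 3.96) and Maf (4.40, 4.46 and 5.03), and Pitx3 (5.85, 5.81 and 5.74) lay just above it. Each of Sox1, Maf and Pitx3 had 1 named probe set, so a low signal and a probe set that binds poorly cannot be told apart.

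The targets of the study's polymerase chain reactions and Hsf4, added to them here, made a list of 19 genes. All were measured, and their median log2 intensity was 9.55 with the brightest probe set of each gene. With these probe sets, 17 lay above the level of the genes of other organs, against 50.7% of all genes. Smarca4, which encodes the chromatin remodelling ATPase Brg1, read 8.14, 8.12 and 7.98, and Smarca2, which encodes its relative Brm, read 8.88, 8.75 and 8.51. Smarce1, a subunit of the same complexes, had a mean of 10.79 and Smarcd1 one of 5.57. Dnase2b, the acid nuclease that degrades fiber nuclei, read 10.47, 10.61 and 10.81. Gsn (gelsolin), Dnmt3a, Hopx, Cdkn1b, Jag1, Mab21l1, Six3 and Fgfr1 had means of 11.37, 10.42, 10.25, 9.85, 9.55, 9.01, 8.99 and 7.79. For some genes the study lists a dimmer probe set, and for Vim one other than that used here. Means of the dimmer ones were 10.25 for Gsn, 7.02 for Dnmt3a, 8.96 for Hopx and 8.49 for Cdkn1b. Those for Mab21l1, Hif1a, Jag1 and Fgfr1 were 8.03, 6.75, 5.27 and 4.70. Jag1 and Fgfr1 then lay below the level of the genes of other organs, so the count of 17 depends on the probe sets used. Pitpnm2 was lowest with 4.16.

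The capsule list had a median log2 intensity of 9.38 over 18 genes. The type IV collagens Col4a1 (12.66, 12.63 and 12.71) and Col4a2 (12.03, 12.07 and 12.10) and the linker protein Nid1 (12.66 ± 0.03, SD, n = 3) were bright and tight between arrays. Col4a4, the dimmest of the list, read 4.41, 4.76 and 5.13 and was highest in replicate 3. Lamb2 (5.45 ± 0.47, SD, n = 3) and Nid2 (6.15, 5.70 and 5.32) were also dim but lowest in replicate 3. The list as a whole did not share this order. Of the 18 genes, 5 were lowest in replicate 3, against 33.4% of all genes, and 10 were lowest in replicate 2. In replicate 2, 0 of the 18 were highest, against 34.3% of all genes. Growth factor receptors and feedback genes had a median of 4.80 over 23 genes. Of these, 11 lay above the level of the genes of other organs, close to the 50.7% of all genes. Fgfr2, an FGF receptor required for lens growth, read 10.85, 10.52 and 10.92. Spry2, a feedback inhibitor of FGF signalling, read 11.43, 11.59 and 11.59. Fgf2 itself had a mean of 3.63.

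Most genes of energy supply and protein care were bright. Oxidative phosphorylation genes had a median log2 intensity of 11.35, led by Cox7a2 at 13.37 ± 0.02 (SD, n = 3). Of these, 45 of 46 lay above the level of the genes of other organs, against 50.7% of all genes. Glycolysis genes had a median of 9.99 over 19, and Pgam2, the muscle form of phosphoglycerate mutase, read 12.40, 12.05 and 12.30. Heat shock proteins had a median of 10.11 over 25: the constitutive Hspa8 read 12.96, 13.11 and 13.14, while the inducible Hspa1a read 3.46, 3.23 and 3.19. Hspa1b, of the same family, read higher than Hspa1a, with 6.60, 6.52 and 5.43 in its brightest probe set. Antioxidant genes had a median of 9.91 over 28, with Gstp1, a glutathione transferase, at 12.92 ± 0.05 (SD, n = 3). The 42 ribosomal protein genes had a median of 12.92, and 38 of them were above the level of the genes of other organs. Immediate early genes, which respond to handling in many tissues, had a median of 5.74 over 20: Jund was at 11.81, Egr1 read 8.41, 7.66 and 7.70, and Myc had a mean of 3.83.

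Lists tied to fiber maturation held bright and dim genes. In the list of nuclear and organelle loss, 17 of 22 genes lay above the level of the genes of other organs, against 50.7% of all genes. It was led by the lysosomal protease Ctsl (11.32 ± 0.04, SD, n = 3). The nuclease genes Dnase1l1 and Dnase1 had means of 4.57 and 3.84. Of the genes of cell cycle exit, Cdkn1c (p57), the main inhibitor of newly formed fibers, read 10.57, 10.76 and 10.71 and Cdkn1b (p27) read 10.21, 9.70 and 9.63, whereas Cdkn1a (p21) had a mean of 4.67. The median of this list was 6.97 over 11 genes. Among the genes commonly used as references, Actb read 13.36, 13.40 and 13.40 and Hprt 9.79, 9.90 and 9.83. Sdha read 10.04, 9.88 and 9.85, and B2m varied more, with 10.70, 10.40 and 10.06.

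Spread between the 3 lens samples depended on intensity. The median SD on the log2 scale was 0.127 for probe sets with a mean under 4, 0.184 from 4 to 6, 0.124 from 8 to 10 and 0.041 over 13. An SD of 0.041 corresponds to a factor of 1.03, and one of 0.184 to 1.14. To ask which transcripts differed between normal lenses by more than others of like intensity, the variance of each probe set was set against the trend with limma. At an adjusted p under 0.05, 11 of 22626 probe sets were called (0.0486%), and 1076 had an unadjusted p under 0.05.

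Sex-linked transcripts led the calls, with 5 of the 11 probe sets. Eif2s3y, a translation factor gene of the Y chromosome, had log2 intensities of 3.40, 10.48 and 10.81 (SD 4.19, limma adjusted p = 0.00615). Kdm5d, a histone demethylase gene of the Y chromosome, read 4.81, 8.50 and 8.47 (limma adjusted p = 0.0477). Xist, the RNA that coats the inactive X chromosome, ran the opposite way: its 3 called probe sets read 10.50, 5.24 and 5.26, then 10.69, 3.49 and 3.75, and 8.60, 3.31 and 3.42. Uty, on the Y chromosome, read 4.29, 5.42 and 5.29, below the level of the genes of other organs on each array, and was not called. Replicate 1 thus stood apart from replicates 2 and 3 in Eif2s3y, Kdm5d and Xist. The labels do not give the sex of the animals. Both unnamed called probe sets had the pattern of Eif2s3y, with 3.09, 9.89 and 10.07 in one and 3.37, 9.33 and 9.76 in the other.

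The other 4 calls were single probe sets that varied far more between arrays than the brightest other probe set of the same gene. A Gsn probe set read 9.50, 3.77 and 9.76, while the brightest Gsn probe set read 11.37, 11.29 and 11.45. A Vamp3 probe set read 12.58, 10.60 and 12.27, while the brightest for this vesicle fusion protein read 11.81, 11.94 and 11.92. For Pnpt1, a mitochondrial RNA-degrading enzyme, the called probe set read 3.67, 8.13 and 8.33 and the brighter one 8.08, 7.15 and 7.37. For Galc, a lysosomal galactosidase, the called probe set read 3.65, 8.45 and 6.91 and the brighter one 6.06, 6.34 and 6.63. With only 2 arrays left, limma called 0 probe sets without replicate 1 (1054 had an unadjusted p under 0.05), 7 without replicate 2 and 8 without replicate 3. Fgf12 (8.72, 5.64 and 9.03) lay just outside the threshold with a limma adjusted p of 0.0550, and Cartpt (7.12, 3.81 and 3.55) followed with 0.128.

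**Figure D3:**
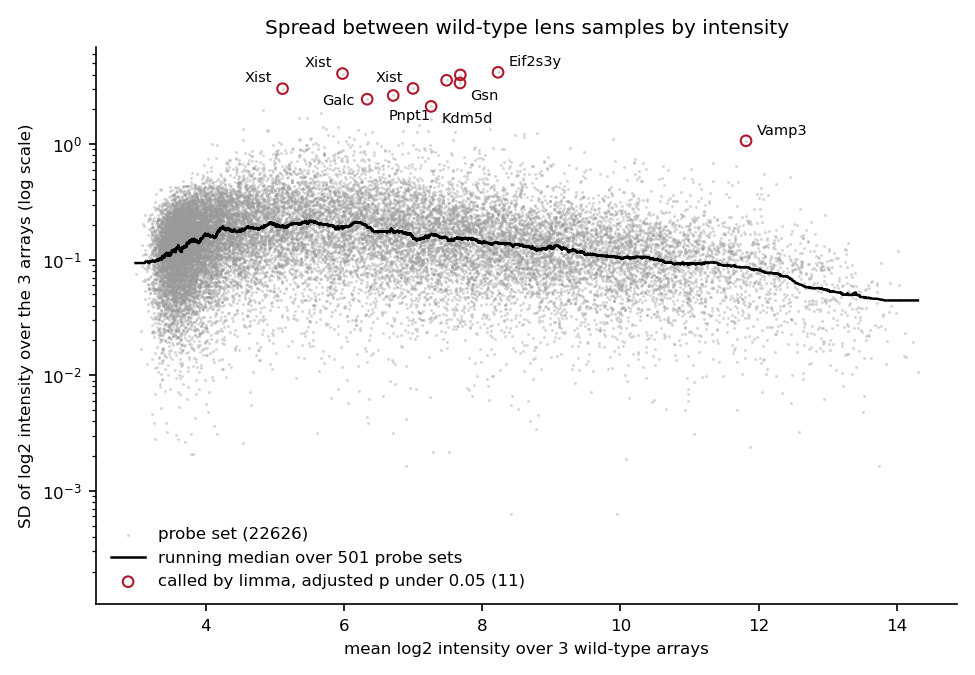
SD of log2 intensity over the 3 wild-type arrays (vertical axis, log scale) against mean log2 intensity for 22626 probe sets. The black line is a running median, and red circles are the 11 probe sets called by limma, which include 3 of Xist, 1 of Eif2s3y, 1 of Kdm5d and 2 unnamed here.

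Markers of tissues around the lens also differed between arrays. Over all genes, 324 of 12393 (2.61%) had a range of at least 1 on the log2 scale between arrays. Replicate 3 was the lowest array in 257 of these 324 (79.3%), against 33.4% of all genes. Of 18 retina markers, 9 had such a range, 14 were highest in replicate 2 (34.3% of all genes were), and 11 were highest in replicate 2 and lowest in replicate 3 (16.9% of all genes were). Otx2, a transcription factor of retina and pigment epithelium, read 7.59, 8.90 and 6.34. Nefl, the light neurofilament chain, read 5.62, 7.21 and 5.35. The summed linear intensity of the 18 markers was 836, 1724 and 688 in replicates 1, 2 and 3. Of these 18 markers, 2 lay above the level of the genes of other organs on each array, against 50.7% of all genes.

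Further neuronal genes, chosen after their values were seen, were highest and lowest in the same arrays. Neurod1, a neuronal differentiation factor, read 7.39, 8.85 and 5.53, its relative Neurod4 read 8.49, 9.67 and 7.26, and Stmn3, a neuronal relative of Stmn1, read 8.10, 9.49 and 6.77.

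Macrophage markers were lowest in replicate 3 in 15 of 17 genes, against 33.4% of all genes. A range of at least 1 was seen in 9 of the 17, against 2.61% of all genes. The summed linear intensity of these markers was 1898, 1781 and 742. Mrc1, the mannose receptor, read 9.03, 8.63 and 7.30, and the defining markers Csf1r and C1qa read 7.61, 8.16 and 6.73 and 4.85, 4.66 and 3.98. Pigment cell markers had a range of at least 1 in 5 of 10 genes, against 2.61% of all genes. Dct, a melanin enzyme, read 8.23, 7.58 and 5.45, and Tyrp1 read 8.98, 8.61 and 7.27. Tyr, the first enzyme of melanin synthesis, read 5.07, 4.44 and 4.76. The summed intensity of the pigment cell markers was 4465, 3684 and 3218, most of it from Mitf (11.54, 11.31 and 11.40). It was 1477, 1142 and 523 for the 9 others. The other Mitf probe set read 7.07, 6.88 and 6.94.

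Vascular markers were highest in replicate 1 in 14 of 16 genes, against 27.9% of all genes, with summed intensities of 2908, 2137 and 2296. Flt1, a VEGF receptor, read 9.59, 8.94 and 9.21, and the defining markers Pecam1 and Cdh5 were dim at 4.94, 4.43 and 4.49 and at 5.41, 5.18 and 5.15. Mesenchyme markers were highest in replicate 1 in 11 of 15 genes, with summed intensities of 1334, 1122 and 962. Col3a1 read 6.95, 6.07 and 5.35, Col1a1 read 6.81, 8.12 and 7.20, and Dcn was at 3.87.

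Other lists had few bright members among the genes measured. Of 16 listed blood genes, 11 were measured with a single-symbol probe set. Any signal in probe sets with several symbols or none is not counted here. Of these 11 genes, 2 lay above the level of the genes of other organs, against 50.7% of all genes. These were Hba-a2, an α-globin, at 10.69, 10.56 and 10.58 and Hbb-b2, a β-globin, at 10.51, 9.38 and 9.79. The other Hbb-b2 probe set read far lower, with 3.46, 3.34 and 3.39. Hba-a1 had a mean of 3.82 and Alas2 one of 4.86, and the list's summed intensity was 3256, 2311 and 2562. Of 12 cornea and skin genes 1 lay above that level (Krt10, mean 7.09), and the defining markers Krt12 and Krt5 had means of 4.23 and 4.63. Of 12 muscle genes 1 did (Acta2, mean 6.77), with Des at 3.71 and Myh11 at 4.11. The summed intensities of these last 2 lists were 307 to 318 and 252 to 297.

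Cell cycle genes had the same highest and lowest array as the retina markers. The 29 measured genes had a median log2 intensity of 7.99. Of them, 19 were highest in replicate 2 and lowest in replicate 3, against 16.9% of all genes. A range of at least 1 was seen in 0 of the 29, against 2.61% of all genes. Ccnd1 (cyclin D1) read 11.52, 11.90 and 11.17, Stmn1, a microtubule regulator of dividing cells and neurons, read 12.57, 12.89 and 12.34, and Pcna read 10.60, 10.61 and 10.42. The part of cells from retina and the other tissues named here in these differences was not tested.

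Median SDs on the log2 scale were 0.029 for the crystallins, 0.102 for the cytoskeletal and 0.149 for the membrane fiber genes, against 0.140 for all genes. These differences also carry the trend of spread with intensity. The median SD of probe sets was 0.041 over 13, where all crystallins lay, 0.096 from 10 to 12 and 0.124 from 8 to 10. Of 46 measured fiber genes 0 had a range of at least 1, and of the 29 epithelium genes 2 did, beside the 2.61% of all genes. For the fiber genes without crystallins the median deviation from a gene's mean was -0.03, 0.00 and 0.04 in replicates 1, 2 and 3. The corresponding values were -0.21, 0.48 and -0.35 for retina markers and 0.40, 0.29 and -0.74 for macrophage markers. The 50 brightest genes were the same 50 when any one array was left out.

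**Figure D4:**
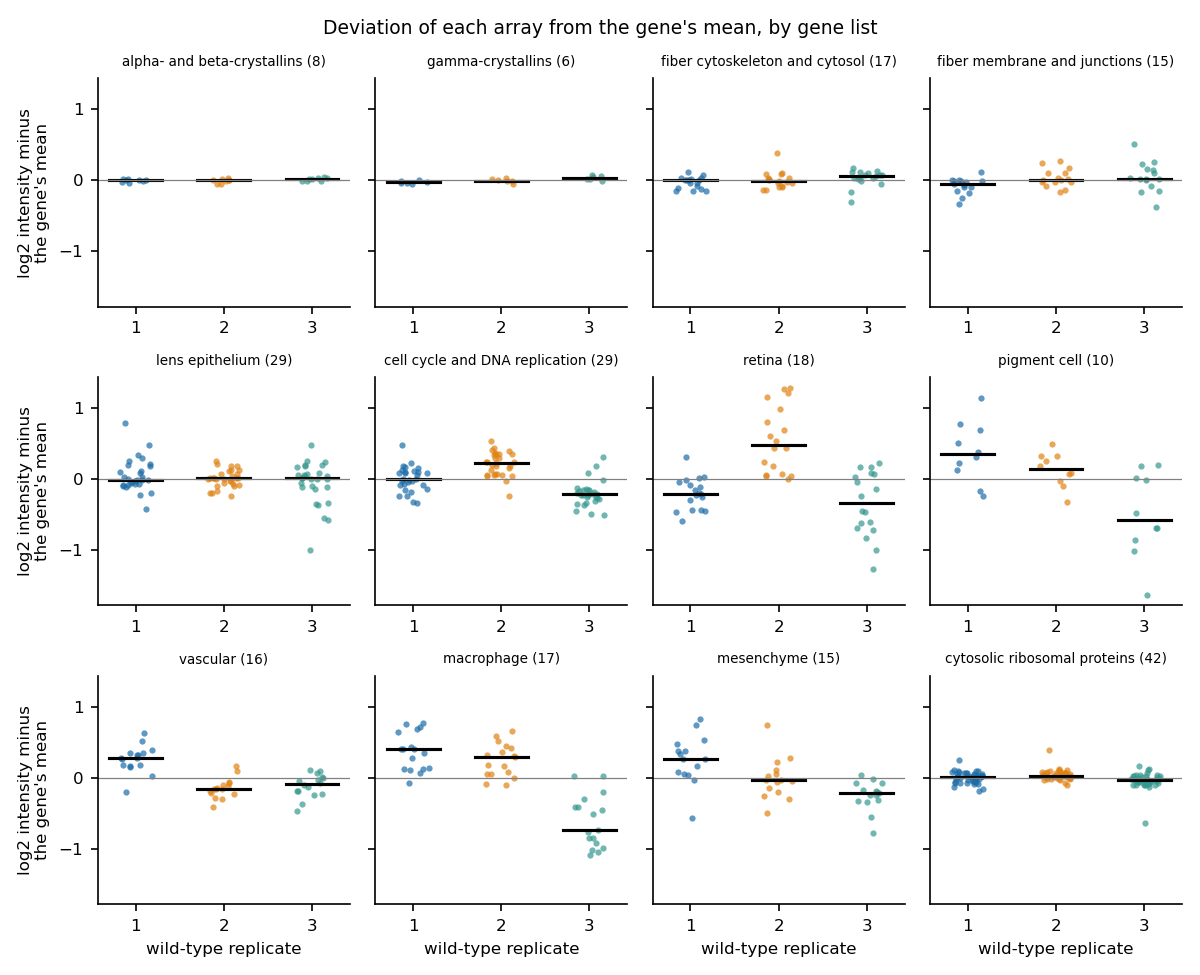
Log2 intensity of each array minus the gene's mean (vertical axis) in wild-type replicates 1, 2 and 3, for measured genes of 12 lists, with the median as a black bar. Crystallins stay near 0, whereas retina markers are higher in replicate 2 (median 0.48) and macrophage and pigment markers lower in replicate 3 (medians -0.74 and -0.58).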

How the data were processed

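RNA of newborn wild-type lenses was measured on 3 Affymetrix Mouse Genome arrays. The authors applied RMA (background correction, a shared distribution for all arrays, 1 summary value per probe set) and deposited the intensity values on a linear scale. No RMA version, and no list of arrays normalized together, is given in the sources used here. Because of the shared distribution, intensities are relative to an array's other transcripts.

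Here log2 was taken. Of 22626 probe sets, 20380 carry 1 symbol in the platform annotation, 691 several and 1555 none. Symbols of 20351 were brought up to date by gene identifier (RefSeq, GRCm38.p6). A total of 553 of 649 entries in 29 gene lists were measured. Variances over the 3 arrays were tested against the intensity trend with fitFDistRobustly of limma 3.58.1 in R 4.3.3, with Benjamini-Hochberg adjustment over all probe sets. Simulated data served to test the procedure. Levels and ranks are descriptions without a test, and 3 arrays limit the precision. Because the methods name biological triplicates without further detail, p-values measure the spread between these samples.

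The genes, lists and tests were chosen with earlier results of these data known. The named genes are the 40 brightest, up to 6 brightest and the 2 dimmest of each list, genes called for spread, sex-linked genes, the polymerase chain reaction panel with Hsf4, and B2m, Hprt and Sdha. Any other gene given as an example of its list was chosen after its values were seen. Alternatives were other scalings, the median over arrays, the mean of a gene's probe sets, leaving out probe sets that can match several transcripts, other thresholds, and leaving out each array.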

Additional observations from a re-analysis of the deposited data

How the results depend on the processing

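No paired analysis was possible because only the wild-type group is described and nothing is compared between groups. The count of 14 crystallins among the 50 brightest genes became 13 with the mean of a gene's probe sets and without probe sets that can match several transcripts, and was 14 under the other alternatives. Under these 2 alternatives, 30 and 39 of the 50 brightest genes were shared. The medians of the fiber lists (11.92) and of the lens epithelium list (10.13) became 11.01 and 8.49 with the mean of a gene's probe sets. Without each array they ran from 11.87 to 11.97 and from 10.03 to 10.17. The epithelium median was 10.04 with the median over arrays, 9.82 without probe sets that can match several transcripts and, chosen after seeing the data, 10.26 without genes that retina or pigment epithelium also express. Genes above a threshold numbered 3429 with the 75th percentile of each array in place of the genes of other organs (6286), and 7385 with Cela1 and Gcg taken out of that list, also chosen after seeing the data. The 11 probe sets called for spread became 0 without the intensity trend (930 at an unadjusted p under 0.05), 6 without dim probe sets, 2 with 1 probe set per gene, and 0 to 8 without each array. A rule without a p-value, an SD of at least 3 times the running median, took in 673. Of 247 named genes, log2 levels stayed within their SD for all under renewed quantile normalization and for 124 with the mean of probe sets.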

Other observations

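Some genes regarded as markers of other organs were bright in all 3 lens samples. Cela1, a pancreatic elastase, had log2 intensities of 10.10, 10.24 and 10.33 and held rank 1306 of 12393. Gcg, which encodes proglucagon, read 9.96, 9.64 and 10.17. Most others of the 25 measured genes of other organs were near the bottom of the scale, with a list median of 3.70, and Alb (albumin) read 3.92, 3.80 and 4.08. Prm1, a protamine of sperm, read 6.24, 5.75 and 6.08. Mitf, the master regulator of pigment cells, read 11.54, 11.31 and 11.40 in its brightest probe set and 7.07, 6.88 and 6.94 in the other. The other 9 pigment cell markers had means of 8.29 or less.

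Single genes in none of the lists also varied between the lens samples, and those given here were chosen after their values were seen. Aldh1a7, an aldehyde dehydrogenase, read 10.01, 8.07 and 7.76. Ceacam10, a secreted glycoprotein, read 10.36, 11.55 and 11.17 in one probe set and 9.35, 10.66 and 10.62 in another. Golt1b, a Golgi transport protein, read 7.28, 9.31 and 9.24. None of these passed the limma test of spread after adjustment.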
